A study of Rattus norvegicus with 20 samples.

Results

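The thrombospondins are 5 related, secreted glycoproteins that bind calcium and collect in the matrix between cells. Thbs1 and Thbs2 encode the members that assemble as trimers and carry the type 1 repeats through which thrombospondin 1 binds CD36 and activates latent TGF-beta. Thbs3, Thbs4 and Comp (cartilage oligomeric matrix protein) encode the members that assemble as pentamers and lack those repeats. In the heart, thrombospondin 1 is known from platelets, endothelium and fibroblasts, and thrombospondin 4 from loaded muscle, where in mouse it has also been placed inside the endoplasmic reticulum as a partner of the stress sensor ATF6. COMP is best known from cartilage and tendon, where it binds collagen fibrils.

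The 5 genes were taken from the deposited table by their symbols in the authors' comparison sheet, joined by transcript ID without regard to letter case. Each had 1 of the 18282 transcript IDs, NM_001013062 for Thbs1, NM_001169138 for Thbs2, NM_001305458 for Thbs3, NM_017133 for Thbs4 and NM_012834 for Comp. The RNA came from the right ventricle of Wistar rats. In pulmonary banding the artery to the lungs is narrowed, so that this chamber works against a higher load, and a sham operation leaves out the band. The groups were banding at 4 weeks (5 libraries), sham at 4 weeks (5 libraries), banding at 8 weeks (4 libraries) and sham at 8 weeks (5 libraries). Rats were 7 weeks old at 4 weeks after the operation and 11 weeks old at 8 weeks, so time and age cannot be told apart. Replicate 2 of banding at 8 weeks was not analysed here. The labels number the libraries of a group but do not say that they came from separate animals, so p-values measure the spread between these libraries.

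Values below are the authors' normalized counts, in which a size factor divides the reads of each library. Libraries held 2.70 to 8.54 M recovered reads (median 5.79 M), and replicate 1 of banding at 8 weeks was the shallowest. Levels were not set against each other between genes, since no transcript lengths were at hand. Tests used limma on log2(value + 1) over the 10926 IDs that reached 10 normalized counts in 4 or more of the 19 libraries. Called genes had a p under 0.05 after Benjamini-Hochberg adjustment. All 5 thrombospondins passed this minimum. Comp passed it only through banding, where 9 of 9 libraries reached 10 against 3 of 5 sham libraries at 4 weeks and 0 of 5 at 8 weeks. Its call and place among the tested IDs are thus those of a gene admitted by its banding values. The tissue label stood beside high cardiomyocyte markers in every library, with troponin T (Tnnt2) between 51559 and 77495 normalized counts. The atrial light chain Myl7, which healthy ventricle has little of, exceeded 1000 in 7 of the 19 libraries, namely replicate 2 of banding at 4 weeks, replicates 1 and 3 of sham at 4 weeks, replicate 3 of banding at 8 weeks, and replicates 1, 2 and 5 of sham at 8 weeks.

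Thrombospondin 4 and, at 8 weeks, COMP and thrombospondin 1 were higher under banding, while Thbs2 and Thbs3 did not pass the test in either comparison. At 4 weeks, 1 of the 5 genes was called, Thbs4, where 19.1% of all tested IDs were called, 9.27% higher and 9.82% lower. At 8 weeks, 3 of the 5 were called, all higher, where 33.4% of all tested IDs were called, 16.7% higher and 16.6% lower. The libraries of banding lay entirely above those of sham for 1 gene at 4 weeks (6.51% of tested IDs) and for 3 genes at 8 weeks (12.5% of tested IDs). In bulk tissue, fewer cells of a type and less RNA per cell cannot be told apart, nor can more cells and more RNA per cell.

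**Figure D1:**
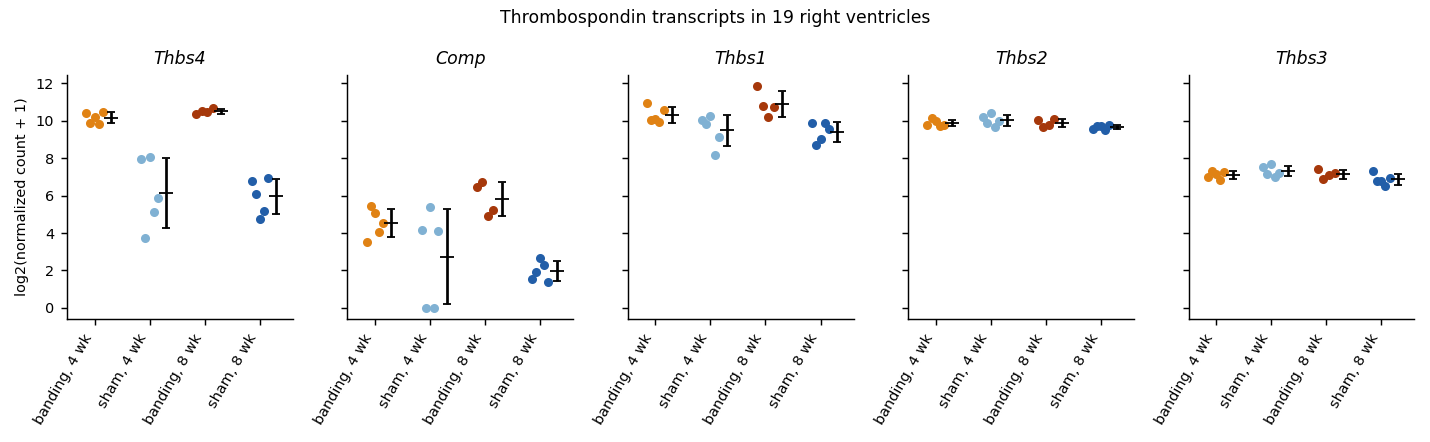
Normalized count of each thrombospondin on a log2(value + 1) axis. Each coloured point is 1 library, and the black bar is the mean with its SD in that group. Thbs4 was at 902 or above in each of the 9 banding libraries and at 272 or below in each of the 10 sham libraries, and Thbs2 and Thbs3 overlapped between groups throughout.

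Thbs4, the member known from loaded muscle, had the largest change of the family on the log2(value + 1) scale at both times. At 4 weeks it had 1349.7, 954, 1189, 902 and 1404 normalized counts in the banding libraries, against 250.2, 12.2, 272, 33.4 and 57.2 in the sham libraries. At 8 weeks it had 1299.7, 1475, 1402 and 1647 in the banding libraries, against 111, 66.5, 26.2, 35.6 and 121 in the sham libraries. On the log2(value + 1) scale the banding libraries were close to each other and the sham libraries were widely spread. The SD on that scale was 0.29 under banding and 1.88 in sham at 4 weeks, and 0.14 and 0.96 at 8 weeks. The groups did not overlap at either time. The mean was 1160.0 ± 227 under banding and 125 ± 125 in sham at 4 weeks (SD, n = 5 each), a ratio of means of 9.28. It was 1456 ± 146 under banding (n = 4) and 72.1 ± 43.0 in sham (n = 5) at 8 weeks, a ratio of 20.2. On the log2 scale the change was 4.01 ± 0.58 at 4 weeks (SE, limma adjusted p = 2.79e-05) and 4.55 ± 0.61 at 8 weeks (limma adjusted p = 5.55e-06). Ordered by log2 fold change among the 10926 IDs, Thbs4 stood at place 5 from the top at 4 weeks and at place 3 at 8 weeks. In the authors' deposited table the log2 fold change of Thbs4 was 1.36 at 4 weeks and 1.64 at 8 weeks, against 3.21 and 4.34 for the log2 ratio of the group means of the deposited counts. The deposited fold changes of Thbs4 and Comp thus look shrunken towards 0; how they were estimated is not given in the sources used here, and their sizes are not comparable with those of limma.

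Comp, the cartilage member, was low in every group and was called at 8 weeks. At 8 weeks it had 88.1, 106, 29.4 and 36.04 normalized counts in the banding libraries, against 1.91, 2.77, 5.25, 3.95 and 1.58 in the sham libraries. The sham values at 8 weeks rested on 1 to 5 reads a library, 16 reads in sum, so the height of the ratio depends on few reads while the groups were well apart. The mean was 64.9 ± 37.97 under banding (n = 4) and 3.09 ± 1.52 in sham (n = 5), which is a log2 change of 3.88 ± 0.84 (limma adjusted p = 0.000958). The log2 ratio of means was 4.39 for Comp, against 4.34 for Thbs4, so the order of the pair at 8 weeks depends on the scale. Comp stood at place 8 from the top of the 10926 IDs.

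At 4 weeks Comp had 10.7, 42.9, 32.3, 15.4 and 22.5 in the banding libraries, against 16.975, 0, 40.6, 0 and 16.5 in the sham libraries. The groups overlapped, and a count of 0 allowed levels of up to 2.43 and 2.87 in those sham libraries. The mean was 24.8 ± 13.0 under banding and 14.8 ± 16.7 in sham (SD, n = 5 each), a log2 difference of 1.79 ± 0.79 that did not pass (limma adjusted p = 0.122). This value depended on single libraries and ran from 1.11 to 2.46 with each library left out in turn. It passed only without replicate 3 of sham at 4 weeks, which had the highest Comp of all sham libraries. There it was 2.46 (limma adjusted p = 0.0216, against 0.0216 to 0.346 over all libraries left out in turn). On recovered reads the change at 4 weeks was 0.65 with edgeR and 0.73 with DESeq2, and it was not called by either.

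Thbs1, the platelet and endothelial member, was called at 8 weeks. At 8 weeks it had 3769, 1763, 1175 and 1705 normalized counts in the banding libraries, against 956, 417, 515, 926 and 758 in the sham libraries. The groups did not overlap, and replicate 1 of banding, the shallowest library, stood far above the other banding libraries. The mean was 2103 ± 1142 under banding (n = 4) and 714 ± 241 in sham (n = 5), which is a log2 change of 1.49 ± 0.36 (limma adjusted p = 0.00243). Without replicate 1 of banding at 8 weeks it was 1.16 and still passed. In the authors' deposited table Thbs1 and Comp were both called at 8 weeks, and neither at 4 weeks. Both had a log2 fold change of 1.03 there, while the log2 ratio of group means was 1.56 for Thbs1 and 4.39 for Comp, so these deposited sizes do not show an equal change.

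At 4 weeks Thbs1 had 1969, 1054, 1111, 971 and 1524 in the banding libraries, against 1036, 902, 1236, 292 and 564 in the sham libraries. Of the 5 banding libraries, 2 lay above all sham libraries. The mean was 1326 ± 418 under banding and 806 ± 377 in sham (SD, n = 5 each), a log2 difference of 0.83 ± 0.34 that did not pass (limma adjusted p = 0.0906). Here too replicate 3 of sham at 4 weeks decided the call, since without it the difference was 1.03 (limma adjusted p = 0.0360, against 0.0360 to 0.263 over all libraries left out in turn).

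The platelet factor 4 transcript Pf4 was also highest of all libraries in replicate 1 of banding at 8 weeks, at 521 normalized counts. Replicate 2 of sham at 4 weeks had nearly as much Pf4, 506, with Thbs1 at 902, within the range of the other sham libraries. Of 8 platelet and megakaryocyte markers, 3 were tested and 0 were called at either time, with 0 at an unadjusted limma p under 0.05 and 0 called by edgeR or DESeq2. The summed level of the 6 markers in the table ran from 104 to 245 under banding and from 104 to 628 in sham at 4 weeks, and from 94.9 to 617 under banding and from 72.0 to 357 in sham at 8 weeks. The platelet transcript Ppbp was at 0 to 5.72 throughout. The part of platelet RNA in the Thbs1 values was not tested.

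Thbs2, which has the same domain order as Thbs1, did not pass in either comparison. At 4 weeks it had 862, 1124, 1006, 848 and 891 normalized counts in the banding libraries, against 1158, 959, 1352, 805 and 1009.5 in the sham libraries. Its banding libraries had 1047, 815, 877 and 1103 at 8 weeks, against 751, 842, 830.1, 730.4 and 870.5 in the sham libraries of that time. The groups overlapped at both times, and 3 of 4 banding libraries lay above all sham libraries at 8 weeks. The log2 difference was -0.15 ± 0.11 at 4 weeks (limma adjusted p = 0.424) and 0.25 ± 0.12 at 8 weeks (limma adjusted p = 0.123).

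Thbs3, a pentameric member, did not pass either. At 4 weeks it had 126, 160.2, 144, 113 and 154 normalized counts in the banding libraries, against 183, 144, 204, 128 and 145 in the sham libraries. In the banding libraries of 8 weeks the values were 172, 116, 134 and 149, against 161, 109.9, 109, 90.9 and 123 in the sham libraries. The groups overlapped at both times. The log2 difference was -0.20 ± 0.15 at 4 weeks (limma adjusted p = 0.417) and 0.28 ± 0.16 at 8 weeks (limma adjusted p = 0.199).

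**Figure D2:**
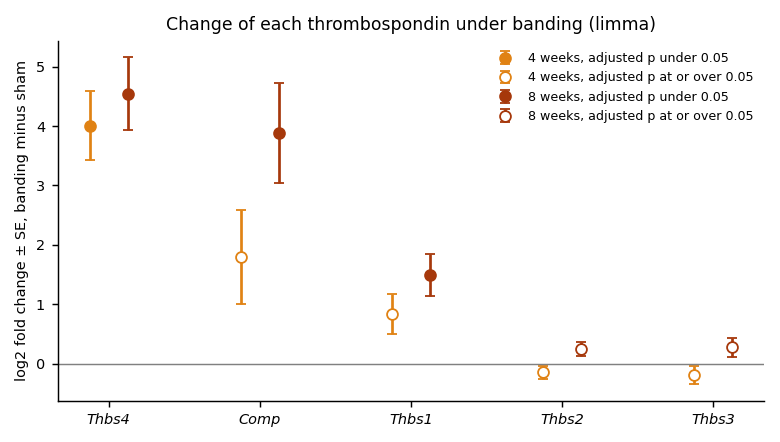
Log2 fold change of each thrombospondin, banding minus sham, with its SE from limma. Filled points passed an adjusted p of 0.05 and open points did not. Thbs4 changed by 4.01 at 4 weeks and 4.55 at 8 weeks, and Thbs2 and Thbs3 lay between -0.20 and 0.28.

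The sequences just before the start of the 3 genes called at 8 weeks and of Thbs3, which was not called, are shown because these genes differ in whether they moved. They are the 250 bases before each gene's start in RefSeq on the rat build GRCr8, printed 5' to 3' on the gene's strand. The deposited counts were made on rn6. Capitals mark CATTCC or its reverse complement GGAATG, the M-CAT letters that TEAD factors bind in muscle promoters. No entry was at hand for Thbs2.
Thbs4, chr2:25760346-25760595, minus strand: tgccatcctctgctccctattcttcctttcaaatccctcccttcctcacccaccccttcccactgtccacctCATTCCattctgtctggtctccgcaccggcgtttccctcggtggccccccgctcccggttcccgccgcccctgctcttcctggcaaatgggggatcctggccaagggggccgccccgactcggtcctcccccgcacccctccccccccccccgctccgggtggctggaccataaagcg
Comp, chr16:19089549-19089798, minus strand: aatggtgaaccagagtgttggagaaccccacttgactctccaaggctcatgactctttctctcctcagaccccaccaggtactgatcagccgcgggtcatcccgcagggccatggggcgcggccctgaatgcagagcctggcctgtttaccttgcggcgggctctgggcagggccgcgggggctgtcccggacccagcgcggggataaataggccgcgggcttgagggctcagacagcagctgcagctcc
Thbs1, chr3:125510000-125510249, plus strand: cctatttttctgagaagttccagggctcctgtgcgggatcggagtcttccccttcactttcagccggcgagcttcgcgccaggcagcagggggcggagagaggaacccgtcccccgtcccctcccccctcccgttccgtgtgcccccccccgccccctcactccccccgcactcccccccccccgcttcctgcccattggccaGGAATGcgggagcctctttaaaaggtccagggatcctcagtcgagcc
Thbs3, chr2:176919349-176919598, plus strand: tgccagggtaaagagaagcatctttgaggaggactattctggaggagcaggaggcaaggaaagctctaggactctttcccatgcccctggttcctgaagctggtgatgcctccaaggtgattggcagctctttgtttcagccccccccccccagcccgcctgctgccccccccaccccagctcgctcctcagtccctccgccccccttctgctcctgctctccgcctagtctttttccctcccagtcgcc

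M-CAT letters stood once before Thbs4, beginning 178 bases before the start, and once before Thbs1, beginning 47 bases before it. They were in neither of the windows of Comp and Thbs3. Searched on both strands in the same way, 12.1% of 33469 rat promoter windows held them. The TATA letters TATAAA were in none of the 4 windows (12.9% of all windows), and neither was the AP-1 motif TGANTCA (6.34%). Each of Thbs4 and Thbs1 held 2 matches to the GC box GGGCGG and Thbs3 held 1 (30.5% of all windows). Thbs1 and Thbs3 held 1 CCAAT box each, spelled CCAAT (34.0%). Thbs4 and Comp each held 1 match to the SMAD letters CAGACA (17.2%). No window held a CArG box (1.497%) or a MEF2 site (2.96%). A match describes these letters and is not evidence that a factor binds.

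Whether the paralogues changed by different amounts was tested within libraries, on the log2 ratio of 2 members, with an exact 2-sided permutation test over libraries and Benjamini-Hochberg adjustment over 10 pairs at each of the 2 times, 20 in all. A scale factor of the library cancels in such a ratio where both values are far above the 1 added before the log. In pairs with Comp it cancels only in part, since Comp in sham ran from 0 to 40.6 at 4 weeks and from 1.58 to 5.25 at 8 weeks. At 4 weeks, 6 of 10 pairs differed in their banding change, and at 8 weeks 8 of 10. The smallest p the exact permutation test can give was 0.00794 at 4 weeks and 0.0159 at 8 weeks.

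Thbs4 changed more than every paralogue at 4 weeks. Its change exceeded that of Comp by 2.21 ± 0.69 on the log2 scale, that of Thbs1 by 3.18 ± 0.74, that of Thbs2 by 4.15 ± 0.76 and that of Thbs3 by 4.204 ± 0.75 (SE, adjusted exact p = 0.0244 for each). At 8 weeks Thbs4 exceeded Thbs1 by 3.06 ± 0.58, Thbs3 by 4.27 ± 0.38 and Thbs2 by 4.30 ± 0.44 (adjusted exact p = 0.0244 for each). Its difference from Comp at 8 weeks, 0.66 ± 0.82, did not pass (adjusted exact p = 0.551), with an SE that leaves room for a difference of either sign.

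Comp separated from the other members at 8 weeks. Its change there exceeded that of Thbs1 by 2.39 ± 0.52, that of Thbs3 by 3.61 ± 0.59 and that of Thbs2 by 3.64 ± 0.55 (adjusted exact p = 0.0244 for each). At 4 weeks the same 3 differences were 0.96 ± 1.08, 1.99 ± 1.08 and 1.94 ± 1.07, and none passed (adjusted exact p = 0.495, 0.138 and 0.159).

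Thbs1 and Thbs2, the trimeric pair, differed from each other at both times. The change of Thbs1 exceeded that of Thbs2 by 0.98 ± 0.36 at 4 weeks and by 1.24 ± 0.42 at 8 weeks (adjusted exact p = 0.0244 for each). It exceeded that of Thbs3 by 1.03 ± 0.35 at 4 weeks (adjusted exact p = 0.0244) and by 1.21 ± 0.37 at 8 weeks (adjusted exact p = 0.0454). Thbs3 and Thbs2 differed by -0.05 ± 0.07 at 4 weeks (adjusted exact p = 0.551) and by 0.03 ± 0.15 at 8 weeks (adjusted exact p = 0.873).

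**Figure D3:**
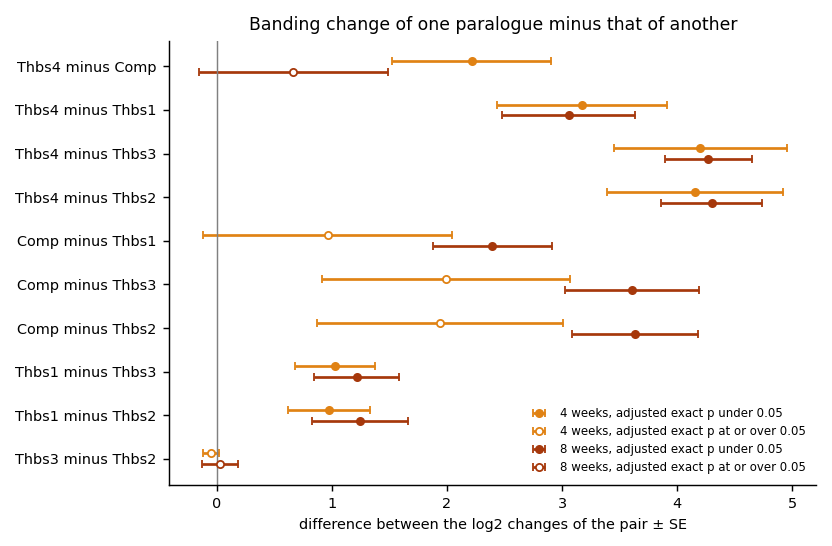
Difference between the log2 banding changes of 2 paralogues, with its SE over libraries. Filled points passed an adjusted exact p of 0.05 and open points did not. Pairs with Thbs4 are filled except Thbs4 minus Comp at 8 weeks, at 0.66, and Thbs3 minus Thbs2 lies at -0.05 and 0.03.

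Between 8 and 4 weeks no thrombospondin was called in either operation group, and the difference between the banding effects at 8 and at 4 weeks was called for none of them. In sham, 6.53% of tested IDs were called between the times, in banding 1.14%, and for the difference of effects 0.0275%. At an unadjusted limma p under 0.05 there were 2 members in sham, 0 in banding and 2 for the difference of effects. With edgeR 1 member was called in sham and with DESeq2 2, and both tools called 0 in banding and 0 for the difference of effects. Under banding, Thbs4 differed by 0.34 ± 0.61 between 8 and 4 weeks (limma adjusted p = 0.854), Thbs1 by 0.58 ± 0.36 (limma adjusted p = 0.503) and Comp by 1.31 ± 0.84 (limma adjusted p = 0.523). Thbs2 and Thbs3 differed by 0.02 ± 0.12 and 0.03 ± 0.16 there.

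The banding effect of Comp at 8 weeks minus that at 4 weeks was 2.09 ± 1.15 on the log2 scale and did not pass (limma adjusted p = 0.488). For Thbs4 this difference was 0.54 ± 0.84 and for Thbs1 0.66 ± 0.49 (limma adjusted p = 0.836 and 0.617). The difference was 0.39 ± 0.17 for Thbs2 and 0.47 ± 0.22 for Thbs3, both under an unadjusted p of 0.05 and neither past the threshold (limma adjusted p = 0.366 and 0.411). For both genes the banding value was below sham at 4 weeks and above it at 8 weeks.

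In sham, the mean of Thbs2 was 805 ± 60.7 at 8 weeks and 1057 ± 208 at 4 weeks, and that of Thbs3 was 119 ± 26.0 at 8 weeks and 161 ± 31.5 at 4 weeks (SD, n = 5 each). Under banding the means were 961 ± 137 at 8 weeks and 946 ± 117 at 4 weeks for Thbs2, and 143 ± 23.7 at 8 weeks and 139 ± 19.6 at 4 weeks for Thbs3. The sham differences, -0.37 ± 0.11 for Thbs2 and -0.44 ± 0.15 for Thbs3, did not pass (limma adjusted p = 0.0514 and 0.0851). In the authors' deposited table both were called between the sham groups, with adjusted p-values of 0.0188 for Thbs2 and 0.0419 for Thbs3. Here 1 library could decide the call, since Thbs2 passed without replicate 2 of banding at 4 weeks, without replicate 2 or 4 of sham at 4 weeks or without replicate 3 of banding at 8 weeks, with values from -0.47 to -0.37. Thbs3 passed without replicate 1 of sham at 8 weeks, at -0.55.

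Thbs4 was higher in the sham libraries rich in atrial transcripts than in the others, as a description with no test. In the 5 sham libraries with Myl7 above 1000, Thbs4 ran from 66.5 to 272 with a median of 121, and in the other 5 sham libraries from 12.2 to 57.2 with a median of 33.4, without overlap. Under banding, the 2 libraries with Myl7 above 1000 had 954 and 1475, and the 7 others ran from 902 to 1647. Comp ran from 1.58 to 40.6 in the sham libraries rich in Myl7, with a median of 2.77. In the other sham libraries it ran from 0 to 16.5 with a median of 3.95. These sets pool both times, and Comp differed between the times in sham. At 4 weeks the rich sham libraries had 16.975 and 40.6 of Comp, and the others 0, 0 and 16.5. At 8 weeks the rich ones had 1.91, 2.77 and 1.58 and the others 5.25 and 3.95, all on 1 to 5 reads. Thbs1 ran from 417 to 1236 in the rich sham libraries (median 956) and from 292 to 926 in the others (median 564).

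Of 8 atrial markers, 2 were called higher and 1 lower under banding at each time. This was 37.5%, beside 19.1% of all tested IDs at 4 weeks and 33.4% at 8 weeks. The summed level of these markers ran from 20763 to 47744 under banding and from 11005 to 38741 in sham at 4 weeks. At 8 weeks it ran from 40533 to 54076 under banding and from 11448 to 72283 in sham. Myl7 ran from 24.7 to 2315 under banding and from 41.1 to 17580.0 in sham, and Myl4 from 69.6 to 1420.2 under banding and from 9.73 to 3282 in sham. The sum holds the natriuretic peptide Nppa, a known load-responsive gene and 1 of those called higher. The part of atrial tissue in the thrombospondin values was not tested beyond leaving out the 7 libraries and adding an atrial score as covariate.

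**Figure D4:**
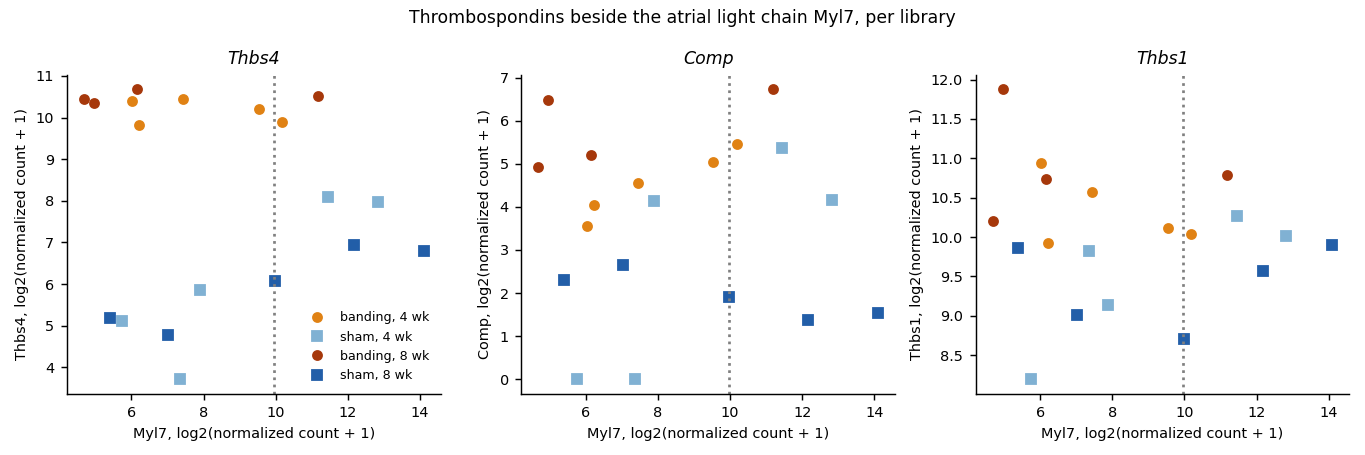
Thbs4, Comp and Thbs1 against the atrial light chain Myl7 in the 19 libraries, both on a log2(value + 1) axis. Circles are banding and squares are sham, and the dotted line marks a Myl7 value of 1000. Sham libraries right of the line had 66.5 to 272 normalized counts of Thbs4 and those left of it 12.2 to 57.2.

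Without the 7 libraries with Myl7 above 1000, more members were called, the change of Thbs4 was larger at both times and that of Comp was larger at 4 weeks and smaller at 8 weeks. At 4 weeks 3 of 5 thrombospondins were then called higher (8.81% of IDs tested in that fit), with log2 fold changes of 5.33 for Thbs4, 2.92 for Comp and 1.34 for Thbs1. At 8 weeks all 5 were called higher (12.3% of IDs tested), with 5.52 for Thbs4, 3.06 for Comp, 1.504 for Thbs1, 0.37 for Thbs2 and 0.60 for Thbs3. These fits held 4 banding and 3 sham libraries at 4 weeks, and 3 banding and 2 sham libraries at 8 weeks. The exact test of paralogue pairs could not pass in them, since its smallest p was 0.0571 at 4 weeks and 0.2 at 8 weeks.

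Genes whose course over the 19 libraries lay nearest to a member were found by the root mean square difference on the log2(value + 1) scale after each gene's own mean was subtracted, among genes with a mean of at least 50. Nearest to Thbs4 were Ltbp2, a latent TGF-beta binding protein (0.78), Nppb, the B-type natriuretic peptide (0.85), Spp1, osteopontin (0.89), Ankrd23, a muscle ankyrin repeat protein (0.94), and Ncam1, a neural cell adhesion molecule (1.01). Nearest to Comp were Spp1 (0.94), Ltbp2 (1.06), the collagen VIII chain gene Col8a1 (1.17), Ncam1 (1.24) and the growth factor gene Ccn2 (1.27). So 3 of the 5 nearest genes, Ltbp2, Spp1 and Ncam1, were on the lists of both. The measure includes the step between banding and sham, so genes with large rises under banding lie near each other. These 3 genes changed by 3.54, 3.64 and 3.70 at 8 weeks, and the overlap shows no more than such a shared rise.

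This measure is not scaled by a gene's own spread, so it is smaller for genes that vary less and does not compare likeness between members. Among the nearest to Thbs1 were the transcription factor Myc (0.39), Adamts1, a protease known to cleave thrombospondins 1 and 2 (0.44), the hormone stanniocalcin Stc1 (0.49) and the oncostatin M receptor Osmr (0.50).

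Thbs2 lay nearest to Esyt1, a membrane tether (0.12), the exchange factor Dock11 (0.13), the gelatinase Mmp2 (0.13), Cybc1 (0.14) and Smg6 (0.15). Thbs3 lay nearest to the secreted factor Angptl2 (0.12), Zdhhc20 (0.15), the actin-binding Lima1 (0.17), Thbs2 itself (0.17) and the phosphodiesterase Pde1a (0.17). Both genes also varied little between libraries.

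Among 15 tested receptors and binding partners of thrombospondins, 2 were called higher and 1 lower at 4 weeks, and 8 higher and 1 lower at 8 weeks. Of all tested IDs 19.1% were called at 4 weeks and 33.4% at 8 weeks, so the 3 of 15 at 4 weeks were near the background. Their median log2 change was 0.10 at 4 weeks and 0.28 at 8 weeks, against 0.00034 and 0.0073 over all tested IDs. The integrin chain Itgb1 averaged 7243 ± 420 under banding and 5126 ± 388 in sham at 4 weeks, and changed by 0.50 at 4 weeks and 0.78 at 8 weeks. The integrin chain Itga4 changed by 0.43 and 1.08. At 8 weeks the endocytic receptor Lrp1, which takes up thrombospondins, changed by 0.87 and the CD47 ligand Sirpa by 0.56. Stim1, a calcium sensor of the endoplasmic reticulum, fell by 0.33 at 4 weeks.

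The receptors bound by the type 1 repeats and by the C-terminal part of thrombospondin 1 are named for that role and not by the rule for named genes. Cd36 averaged 2100.3 ± 365 under banding and 2617 ± 315 in sham at 8 weeks, a fall by 0.32 on the log2 scale (limma adjusted p = 0.0188). At 4 weeks it differed by 0.10 and was not called (limma adjusted p = 0.559). Cd47 differed by -0.11 at 4 weeks and 0.01 at 8 weeks and was called at neither time (limma adjusted p = 0.528 and 0.946).

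Among 15 tested ligands, latency proteins and targets of TGF-beta, 6 were called higher and 3 lower at 4 weeks, and 8 higher and 3 lower at 8 weeks, with medians of 0.19 and 0.51. The shares called, 60% and 73.3%, were above the 19.1% and 33.4% of all tested IDs. The ligand Tgfb2 averaged 358 under banding and 95.7 in sham at 4 weeks and changed by 1.98 at 4 weeks and 3.20 at 8 weeks. Ccn2, a TGF-beta target, changed by 1.74 and 2.58, and Ltbp2 by 3.54 at 8 weeks. The latent TGF-beta binding protein Ltbp1 fell by 1.01 at 4 weeks and by 0.91 at 8 weeks, and Tgfbi, a TGF-beta induced matrix protein, fell by 0.67 at 4 weeks.

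Of 17 tested ATF6 and endoplasmic reticulum folding genes, 1 was called at 4 weeks, higher, and 1 higher and 2 lower at 8 weeks, with medians of -0.05 and -0.08. The shares called, 5.88% and 17.6%, were below the 19.1% and 33.4% of all tested IDs. The chaperone calnexin (Canx) was the 1 called higher, by 0.19 and 0.15. The chaperone Hspa5 fell by 0.49 at 8 weeks and Herpud1, of the degradation pathway, by 0.62. Atf6 itself, named for its role, differed by -0.09 and 0.06 and was not called (limma adjusted p = 0.572 and 0.704).

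Of 32 tested proteins with thrombospondin type 1 repeats other than the thrombospondins, 8 were called higher and 8 lower at 4 weeks, and 11 higher and 3 lower at 8 weeks, with medians of 0.01 and 0.21. The shares called, 50% and 43.75%, stood beside 19.1% and 33.4% of all tested IDs. The netrin receptor Unc5b changed by 0.85 at 4 weeks and 1.32 at 8 weeks, and Adamtsl3 by 0.69 and 0.97. Adamtsl5 changed by 0.76 at 4 weeks and the semaphorin Sema5a by 1.02 at 8 weeks. Adamts1 changed by 0.69 and 0.64. Adamts7 and Adamts12, which are known to cleave COMP and are named for that role, fell by 0.38 and 0.44 at 4 weeks and by 0.34 and 0.85 at 8 weeks, all past the threshold.

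**Figure D5:**
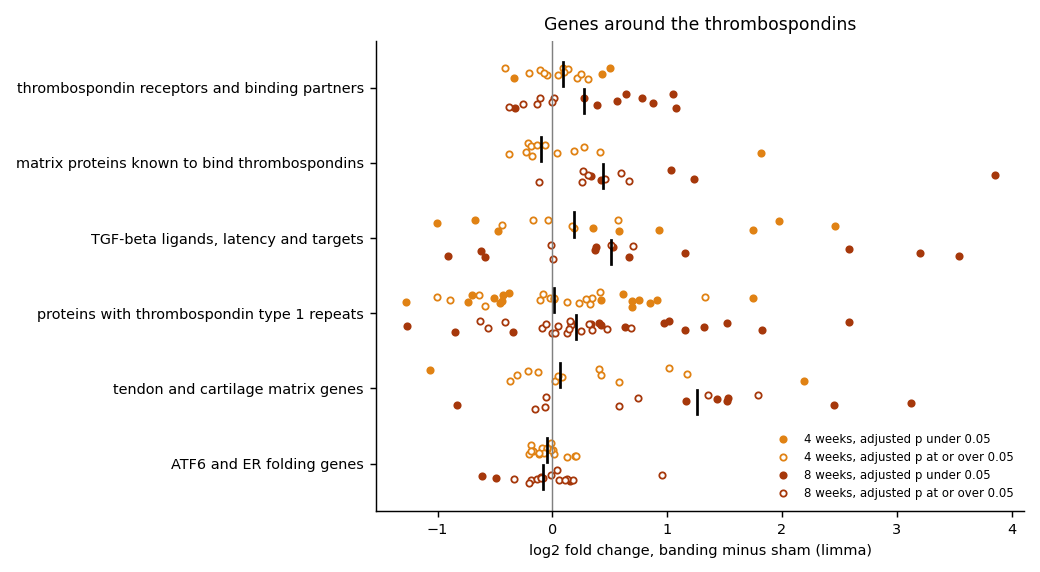
Log2 fold change, banding minus sham, of each tested gene in 6 lists around the thrombospondins. Each point is 1 gene, filled where its limma adjusted p was under 0.05, and the black bar is the median of the list. The median of tendon and cartilage genes was 0.06 at 4 weeks and 1.26 at 8 weeks.

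Of 14 tested tendon and cartilage matrix genes, the tissues in which COMP is best known, 1 was called higher and 1 lower at 4 weeks, and 6 higher and 1 lower at 8 weeks. The 2 of 14 at 4 weeks were a smaller share than the 19.1% of all tested IDs, and at 8 weeks 7 of 14 were called, beside 33.4%. Their medians were 0.06 at 4 weeks and 1.26 at 8 weeks. The cartilage intermediate layer protein Cilp averaged 1045 under banding and 197 in sham at 4 weeks, and changed by 2.19 at 4 weeks and 3.13 at 8 weeks. At 8 weeks lubricin (Prg4) changed by 2.45, tenascin C (Tnc) by 1.43 and Col14a1 by 1.16. Col11a2 fell by 1.07 at 4 weeks. The tendon factor Scx, named for its role, differed by -0.13 and -0.05 and was not called (limma adjusted p = 0.397 and 0.723), and the tendon gene Tnmd was at 0 to 7.03 in every library.

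Of 12 tested matrix proteins known to bind thrombospondins, 1 was called at 4 weeks and 5 at 8 weeks, all higher, with medians of -0.10 and 0.44. The share called was 8.33% at 4 weeks, below the 19.1% of all tested IDs, and 41.7% at 8 weeks, beside 33.4%. Periostin (Postn) changed by 1.82 at 4 weeks and 3.85 at 8 weeks. At 8 weeks fibronectin (Fn1) changed by 1.23, fibrillin 1 (Fbn1) by 1.03 and Sparc by 0.33.

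Marker lists of cell types the tissue holds differed in how many members were called. The share of all tested IDs called was 19.1% at 4 weeks and 33.4% at 8 weeks. For the tested markers it was 57.1% and 85.7% in activated fibroblasts, and 12.5% at both times in general fibroblasts. Of 7 tested markers of activated fibroblasts, 4 were called higher at 4 weeks and 6 at 8 weeks, and the summed level of all 8 listed ran from 3339 to 5962 under banding and from 1047 to 4649 in sham at 4 weeks. At 8 weeks it ran from 4606 to 6421 under banding and from 786 to 1291 in sham. Cthrc1, a marker of such cells, was at 0 to 3.30 throughout. The collagen I gene Col1a2, on the general fibroblast list, averaged 2.23 under banding and 2.82 in sham at 4 weeks. Its partner Col1a1 averaged 5098 and 6579 there. Values near 0, also those given for Ppbp, Tnmd and Myh1, are thus not read as absence of a gene. Among 8 tested general fibroblast markers, 1 was called at each time, the receptor Pdgfra, which fell by 0.76 at 4 weeks and by 0.57 at 8 weeks.

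Of 8 macrophage markers, 5 were called higher at 4 weeks and 7 at 8 weeks. Of 8 smooth muscle and pericyte markers 3 and 5 were called higher, and of 8 endothelial markers 1 and 4. Of 8 cardiomyocyte markers, 1 was called higher and 1 lower at 4 weeks, and 2 lower at 8 weeks. The shares called at 4 and 8 weeks were 62.5% and 87.5% for macrophages and 37.5% and 62.5% for smooth muscle and pericytes. They were 12.5% and 50% for endothelium and 25% at both times for cardiomyocytes, beside 19.1% and 33.4% of all tested IDs. Of 7 tested valve and chordal markers 1 was called, higher, at 8 weeks (Prg4), and of 5 epicardial and mesothelial markers likewise 1 (Wt1). Both shares, 14.3% and 20%, were below the 33.4% of all tested IDs at 8 weeks. Of 8 skeletal muscle markers 1 was tested, Ckm, which the heart also expresses and which was lower at both times, and Myh1 was at 0 to 2.10. The part of these cells in the thrombospondin changes was not tested.

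Some of these counts were different without the 7 libraries with Myl7 above 1000. In that fit, 8.81% of tested IDs were called higher at 4 weeks and 12.3% at 8 weeks. Some genes named above kept their direction and were no longer called in that fit. These were Itga4 (limma adjusted p = 0.0528), Stim1 (0.175), Col11a2 (0.0511) and Canx (0.112) at 4 weeks, and Canx (0.283), Cd36 (0.0903) and Adamts1 (0.126) at 8 weeks. Receptors and binding partners called higher then numbered 2 at 4 weeks and 6 at 8 weeks, of 15. Tendon and cartilage genes called higher numbered 4 at 4 weeks and 5 at 8 weeks, of 14 tested. Matrix proteins that bind thrombospondins called higher numbered 3 at 4 weeks and 9 at 8 weeks, of 11 tested. Of 31 type 1 repeat proteins, 9 were called higher and 4 lower at 4 weeks. General fibroblast markers called higher numbered 1 at 4 weeks and 4 at 8 weeks, of 8. Of 8 endothelial markers, 0 were then called by limma at either time, with 1 at 4 weeks and 3 at 8 weeks at an unadjusted p under 0.05; edgeR and DESeq2 were run on all libraries only, where each called 1 at 4 weeks and 4 at 8 weeks.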

How the data were processed

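Total RNA was prepared with Trizol and libraries from 800 ng with TruSeq Ribo-Zero Gold, per the labels' protocols. STAR, DESeq2 and the build rn6 are named without versions, per the submitters' processing notes, and neither the counting program nor its strand setting is given in the sources used here. The table that the authors deposited holds normalized counts, a signal in reads over a library's size factor, for 18282 transcript IDs in 19 libraries. All positive values (100%) were whole multiples of 1 step per library within 0.001, so reads were recovered for count tests. On these reads edgeR called 2177 IDs at 4 weeks and 3569 at 8 weeks, and DESeq2 2274 and 3591, against 2086 and 3644 with limma. The authors also deposited tables of their comparisons with a log2 fold change, its standard error, a Wald score (the fold change over its error) and p-values, whose direction was set here from the group means. Names of the tables with banding at 8 weeks carry the mark -GB20, read here as a library left out.

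limma 3.58.1 (R 4.3.3) was run on log2(value + 1) (trend, 2-sided, all 4 groups in 1 model) over 10926 IDs reaching 10 in 4 or more libraries. The pseudocount pulls fold changes of low genes towards 0, but a mean of logs also weights libraries at 0 heavily: for Comp at 4 weeks the change of 1.79 exceeded the log2 ratio of means, 0.74. Group values are mean ± SD and changes are ± SE. Exact permutation tests used scipy 1.17.1. Alternatives were pseudocounts of 0.5 and 5, no filter, a mean of at least 50, a block for the replicate number, quantile normalization, TMM rescaling, a robust fit, edgeR 4.0.16 or DESeq2 1.42.0 on recovered reads, fits of the compared groups alone, an atrial score as covariate, and leaving out libraries. The limma step was tested on simulated data. No 2 libraries of a group agreed within sampling noise. One gene near Thbs1 is not reported here.

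Named genes were the 5 members, the 5 genes nearest to each, and up to 4 called members of each list with the smallest p at each time. Others, such as genes named for their role, were chosen after their values were seen. Symbols came from a RefSeq table of GRCr8 for 17359 IDs and from the deposited sheet for 922. The members, lists and rules were chosen with earlier results of these data known.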

Additional observations from a re-analysis of the deposited data

How the results depend on the processing

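Thbs4 was called higher under banding at both times in each of the 14 other settings and in each of 19 fits that left out 1 library, with log2 fold changes from 3.18 to 5.33 at 4 weeks and from 4.33 to 5.52 at 8 weeks over the settings. At 8 weeks Thbs1 was called in all 14 (1.29 to 1.58) and Comp in the 13 that could give a value (2.95 to 4.37); with a mean of at least 50 Comp was not tested. At 4 weeks Comp was 0.65 with edgeR and 0.73 with DESeq2. Each gene had 1 ID, so summing over IDs gave no other value, and a fit of only the groups compared gives none for the difference of effects.

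Whether the replicate numbers pair the libraries was described and not tested. Over 27 same-number pairs the correlation of deviations ran from -0.28 to 0.32, and 7 exceeded 0.1. Its median was 0.021, against -0.0067 over pairs of other numbers. With the replicate block 2 members were called at 4 weeks, Thbs1 (0.83) joining Thbs4, and 1 member, Thbs2, between the sham groups; the replicate block changed no other call of a member. Without the Myl7-rich libraries 3 members were called at 4 weeks (Thbs1 at 1.34, Comp at 2.92) and 5 at 8 weeks (Thbs2 at 0.37, Thbs3 at 0.60). With the atrial score as covariate Thbs3 was called at 8 weeks (0.36). Leaving out 1 library gave 1 to 3 members called at 4 weeks, 0.51 to 1.03 for Thbs1 and 1.11 to 2.46 for Comp.

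Between the sham groups, 1 member was called with a mean of at least 50, TMM, quantile normalization, edgeR or without libraries under 3 M reads (a setting chosen after seeing the data), 2 with DESeq2 or the covariate, and 0 to 1 with 1 library left out. IDs called there were 157 without Myl7-rich libraries, 1109 with the covariate and 428 to 848 with 1 library left out. Without Myl7-rich libraries the sham time difference reversed for Thbs1 (0.38), Thbs4 (0.084) and Comp (1.10), none past the threshold; with 1 library left out it ran from -0.40 to 0.12 for Thbs1 and from -0.80 to 0.29 for Thbs4. Between the banding groups, IDs called were 64 with no filter, 271 with DESeq2, 49 without Myl7-rich libraries, 265 with the covariate and 38 to 150 with 1 library left out. Thbs2 reversed there to -0.0095 with quantile normalization and to -0.026 without libraries under 3 M reads, and Thbs3 to -0.061 in the last setting; with 1 library left out they ran from -0.051 to 0.094 and from -0.061 to 0.13. For the difference of effects, 3 IDs became 5 with TMM, 6 with quantile normalization, 77 with DESeq2, 124 with the covariate, 41 without libraries under 3 M reads and 2 to 23 with 1 library left out. The cause of these shifts was not tested.

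Paralogue pairs that differed fell to 0 at both times without Myl7-rich libraries, and at 8 weeks to 0 without libraries under 3 M reads and to between 0 and 8 with 1 library left out. With 3 banding libraries the exact test cannot go below 0.0357 against 5 sham libraries or 0.0571 against 4, so the counts of 0 there say nothing about the pairs.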
